A study of Mus musculus with 16 samples.

Results

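The mevalonate arm of cholesterol synthesis was followed as 9 genes, Acat2, Hmgcs1, Mvk, Pmvk, Mvd, Idi1, Fdps, Fdft1 and Sqle, chosen by name because their enzymes act between acetyl-CoA and squalene epoxide. They were taken by exact gene symbol from 25803 genes in the joined count tables, and all 9 were among the 14488 genes that passed the filter on low counts. The reductase step of the arm is not among them. The tissue was whole liver of male mice after 12 weeks of high-fat diet, a diet that all 4 groups shared. Controls (also called WT in the series description) were compared with LKO mice, in which Cpt1a was knocked out in the liver, and both genotypes were studied fasted for 16 h or, after such a fast, refed for 6 h. Each of the 4 groups had 4 libraries, S40 to S43 for fasted control, S44 to S47 for fasted LKO, S48 to S51 for refed control and S52 to S55 for refed LKO. Strain, age, the food given at refeeding and the way the knockout was produced are not given in the sources used here. The titles number the samples of a group but do not say that each came from another animal, so p-values measure the spread between these libraries.

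In this arm, units of acetyl-CoA are joined to hydroxymethylglutaryl-CoA, reduced to mevalonate, phosphorylated and decarboxylated to isopentenyl diphosphate, and then condensed to farnesyl diphosphate and squalene. Farnesyl diphosphate is also the branch point for ubiquinone, dolichol and the lipid anchors of proteins. In the liver the genes of the arm are known targets of SREBP2, a transcription factor encoded by Srebf2 that is held in the endoplasmic reticulum by SCAP and the INSIG proteins while sterols are plentiful. Cpt1a encodes the enzyme that admits long-chain fatty acids to mitochondrial oxidation, and the study as titled asks how its loss in the liver lowers plasma cholesterol.

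Promoter sequences are shown for members because the 9 genes moved together across libraries, as described below. RefSeq windows of 250 bases before to 50 bases after the transcription start (build GRCm38.p6, an earlier build than the mm39 of the count tables) matched 6 of the 9 members, Pmvk with 2 starts and the others with 1. Both strands were searched for TCACNCCAC, the core of known sterol regulatory elements, for the NF-Y box CCAAT, for the GC box GGGCGG and for the E-box CACGTG; matches of different motifs were allowed to overlap. The 250 bases before the start are printed 5′ to 3′ on the gene's strand, with matches to the sterol regulatory element and to CCAAT or its complement ATTGG in capitals. Hmgcs1 is shown for its match to the sterol regulatory element, Mvk, Mvd and Idi1 for their CCAAT matches near the start, and Acat2 as a window with neither.
Hmgcs1, chr13:119690101-119690350, plus strand: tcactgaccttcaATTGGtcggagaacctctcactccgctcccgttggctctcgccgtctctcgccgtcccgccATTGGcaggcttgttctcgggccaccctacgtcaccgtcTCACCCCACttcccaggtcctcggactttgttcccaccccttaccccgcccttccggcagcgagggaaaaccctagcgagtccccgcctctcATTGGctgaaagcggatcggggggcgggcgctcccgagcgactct
Mvk, chr5:114444019-114444268, plus strand: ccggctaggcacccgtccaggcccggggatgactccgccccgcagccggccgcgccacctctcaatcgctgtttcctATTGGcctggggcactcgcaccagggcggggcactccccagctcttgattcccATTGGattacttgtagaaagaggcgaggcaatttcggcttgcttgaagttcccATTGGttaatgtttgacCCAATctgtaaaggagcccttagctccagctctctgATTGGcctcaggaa
Mvd, chr8:122443423-122443672, minus strand: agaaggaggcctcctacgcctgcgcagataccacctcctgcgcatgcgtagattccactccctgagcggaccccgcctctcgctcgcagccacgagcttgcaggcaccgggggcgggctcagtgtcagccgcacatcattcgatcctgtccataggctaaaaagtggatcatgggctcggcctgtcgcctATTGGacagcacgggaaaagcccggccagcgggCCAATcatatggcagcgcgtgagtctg
Idi1, chr13:8885356-8885605, plus strand: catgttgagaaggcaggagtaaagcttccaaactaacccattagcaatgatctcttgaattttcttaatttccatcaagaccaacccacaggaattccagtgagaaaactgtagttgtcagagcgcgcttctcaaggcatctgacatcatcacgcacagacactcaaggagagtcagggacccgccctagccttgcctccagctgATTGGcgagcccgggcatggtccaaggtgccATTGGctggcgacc
Acat2, chr17:12960726-12960975, minus strand: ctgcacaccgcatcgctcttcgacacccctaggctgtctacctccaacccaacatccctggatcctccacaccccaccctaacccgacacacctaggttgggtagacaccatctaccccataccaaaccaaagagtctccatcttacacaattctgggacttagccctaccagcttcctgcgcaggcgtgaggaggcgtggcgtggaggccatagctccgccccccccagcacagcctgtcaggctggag

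The letters TCACCCCAC lay 137 to 129 bases before the RefSeq start of Hmgcs1, a start that precedes the nearest GENCODE vM21 transcript start of that gene by 28 bases, and no other member window held TCACNCCAC, a motif found in 1.24% of 32851 RefSeq promoter windows of the same length. CCAAT was more common, with a match in 37.4% of all windows. It occurred in 5 of the 6 members, 5 times in Mvk, 4 times in Hmgcs1 (1 of them past the start and outside the printed stretch), 2 times each in Mvd and Idi1 and 1 time in 1 of the 2 windows of Pmvk. GGGCGG was found in Acat2, Hmgcs1, Mvk, Mvd and Idi1 and in 35.7% of all windows. CACGTG, present in 7.15% of windows, was in none of the 6. These matches describe letters only, and binding was not measured here.

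Library totals ran from 14721601 to 24618230 counts. Cpt1a, counted over its whole gene, fell in LKO livers to 101 ± 17.3 from 487 ± 83.2 CPM (counts for each mega-count of the TMM-scaled library total) in the fasted state and to 54.2 ± 16.6 from 457 ± 137 CPM in the refed state (SD, n = 4), so the labels of genotype held in both states. All 8 hepatocyte markers were present in every library, at a summed 57003 to 86656 CPM. For the 9 genes, 2 libraries stood apart from their groups. S49 was the highest refed control library in 9 of 9 members, 1.66-fold to 7.75-fold above the next, and S52 was the lowest refed LKO library in 9 of 9. S49 even lay above S52 in 9 of 9 members, by 1.16-fold to 2.93-fold, so the comparisons of the refed genotypes in the arm and in the related gene lists are given with and without these libraries.

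The main change was a rise of the whole arm on refeeding in LKO livers. All 9 members were called higher in refed than in fasted LKO, a gene being called at an adjusted p under 0.05. The test was the quasi-likelihood test of edgeR, with Benjamini-Hochberg adjustment over all 14488 genes, and is the one meant by "adjusted p" throughout. The members also showed no overlap in 9 of 9 cases between the 4 refed and the 4 fasted libraries. Of all genes tested, 18.1% were called in that comparison, 9.28% were called higher and 10.6% lay higher without overlap. The rises ran from 2.28-fold for Acat2 to 14.9-fold for Idi1, with a median log2 fold change of 2.19 against −0.02 over all genes tested. In control livers 1 of 9 members, Idi1, was called higher on refeeding, where 15.4% of all genes were called and 7.79% called higher. The test of the difference between the LKO and the control response, the interaction given below, called none of the 9. In whole liver, fewer cells of a type and less RNA per cell cannot be told apart.

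**Figure D1:**
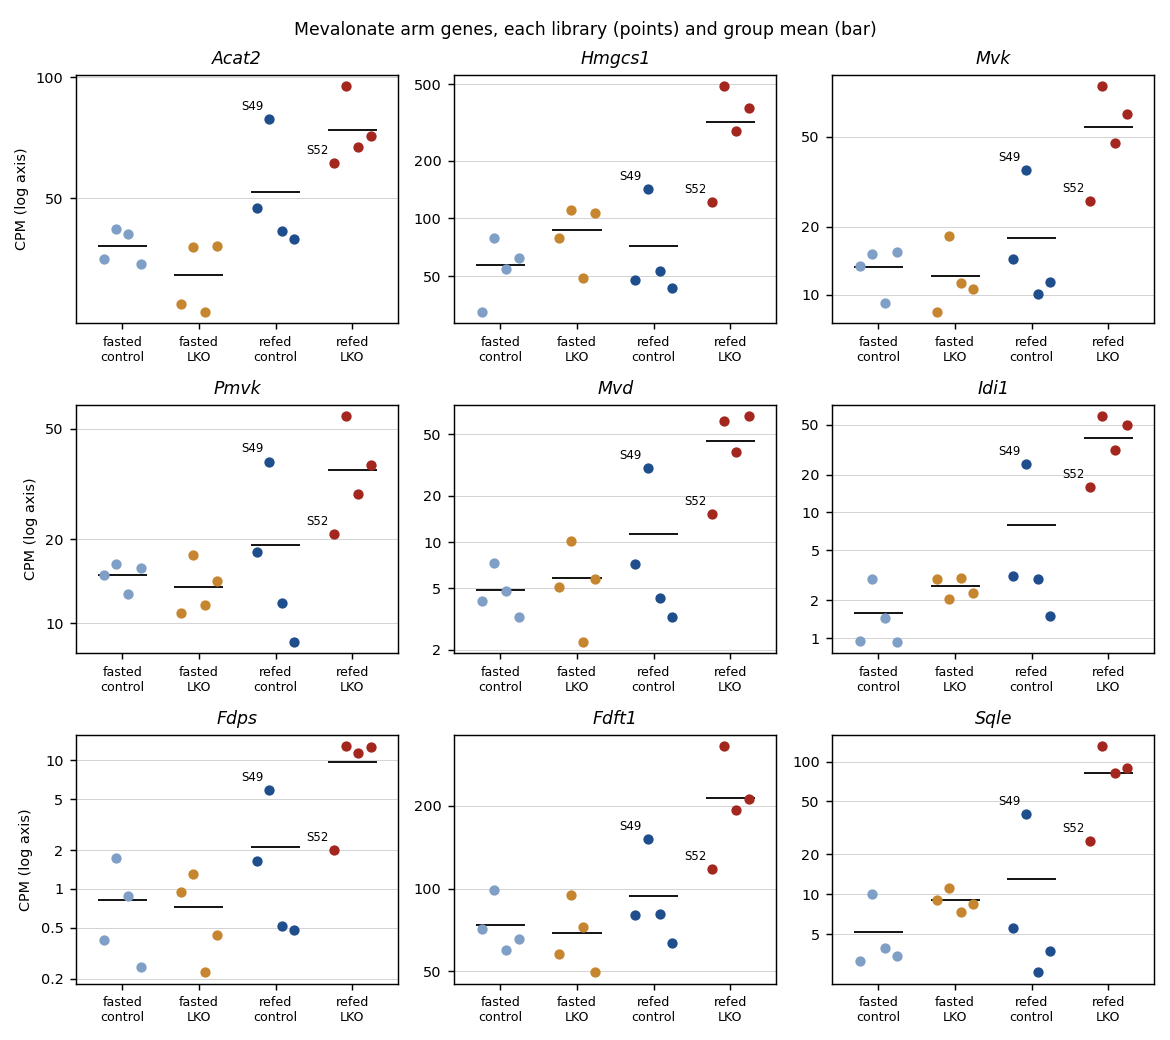
Level of each of the 9 mevalonate arm genes in CPM (log axis) in the 16 libraries, with points for libraries, grouped by genotype and feeding state, and bars for group means. In every panel the refed LKO libraries lie above the fasted LKO libraries, the refed control library S49 lies above the other 3 of its group, and the refed LKO library S52 lies lowest of its group and below S49.

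The arm starts with Acat2 and Hmgcs1. Acat2 (ENSMUSG00000023832, chromosome 17 from 13161777 to 13179634, minus strand, mm39) encodes the cytosolic thiolase that joins acetyl-CoA to acetoacetyl-CoA. The values were 35.3, 41.8, 40.6 and 34.3 CPM in the fasted controls and 27.3, 37.8, 26.1 and 38.0 CPM in the fasted LKO livers. After refeeding they were 47.3, 78.5, 41.4 and 39.6 CPM in controls and 61.0, 95.1, 67.1 and 71.6 CPM in LKO. The refed LKO libraries were above all 8 fasted ones, while refed control overlapped them through S49. Acat2 had the smallest rise of the 9 on refeeding in LKO, 1.19 on the log2 scale (SE 0.20, edgeR adjusted p = 8.2e-04). Acat3 lies next to it on chromosome 17 and is a close copy, so how reads were shared between them is uncertain.

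Hmgcs1 (ENSMUSG00000093930, chromosome 13 from 120151915 to 120169796, plus strand) encodes the cytosolic hydroxymethylglutaryl-CoA synthase, and its promoter window is the one with the letters TCACCCCAC shown above. Its libraries held 32.6, 79.2, 54.4 and 62.3 CPM in fasted control and 79.1, 111, 49.04 and 107 in fasted LKO. After refeeding they held 47.7, 142, 53.02 and 43.4 CPM in control and 122, 490, 284 and 375 in LKO. Refed control other than S49 sat within the fasted range, and S52, the lowest refed LKO library, was still above every fasted LKO library. Hmgcs1 rose by 1.88 on refeeding in LKO (log2 scale, SE 0.43, edgeR adjusted p = 0.0068), and in the refed state it was 4.44-fold higher in LKO than in control (log2 2.15, SE 0.44, edgeR adjusted p = 0.0143).

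The next 3 genes turn mevalonate into isopentenyl diphosphate. Mvk (ENSMUSG00000041939, chromosome 5 from 114582330 to 114598652, plus strand), mevalonate kinase, averaged 13.3 ± 2.89 CPM in fasted control, 12.1 ± 4.23 in fasted LKO and 17.9 ± 12.0 in refed control, and reached 54.99 ± 24.6 CPM after refeeding of LKO mice (SD, n = 4). Its refed LKO libraries were 25.99, 83.98, 46.97 and 63.02 CPM, and the refed control libraries 14.4, 35.6, 10.03 and 11.4. With S49 set aside, the refed control libraries thus stayed at the fasted level while the refed LKO libraries were all above it. Mvk rose by 2.19 on refeeding in LKO (log2, SE 0.40, edgeR adjusted p = 0.00134) and was 3.07-fold higher in refed LKO than in refed control (log2 1.62, SE 0.39, edgeR adjusted p = 0.0307).

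Pmvk (ENSMUSG00000027952, chromosome 3 from 89361848 to 89376320, plus strand), the kinase that adds the next phosphate, held 10.9, 17.5, 11.6 and 14.2 CPM in fasted LKO and 20.9, 55.5, 29.0 and 37.0 in refed LKO. These groups did not overlap, but S52 was only a little above the highest fasted library. Refed control spread from 8.55 to 38.1 CPM, the latter in S49, and so reached both below and above the fasted control range of 12.7 to 16.3. Its rise in LKO was 1.39 (log2, SE 0.36, edgeR adjusted p = 0.0143), and this call was lost without S53 (adjusted p = 0.0537). The refed genotype difference of 0.89 (SE 0.36) did not pass (edgeR adjusted p = 0.184).

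Mvd (ENSMUSG00000006517, chromosome 8 from 123160340 to 123170161, minus strand) encodes the decarboxylase that makes isopentenyl diphosphate. In fasted control it stood at 4.17, 7.35, 4.80 and 3.27 CPM and in fasted LKO at 5.14, 10.1, 2.24 and 5.72, ranges that overlap. Refed control held 7.22, 30.1, 4.34 and 3.26 CPM and refed LKO 15.3, 61.1, 38.6 and 65.6. S49 was 4.16-fold above the next refed control library and 1.96-fold above S52. Mvd rose 7.77-fold on refeeding in LKO (log2 2.96, SE 0.63, edgeR adjusted p = 0.0040), whereas its refed genotype difference, a log2 fold change of 2.002 (SE 0.60), missed the threshold (edgeR adjusted p = 0.0723).

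Idi1 and Fdps handle the isoprenoid units. Idi1 (ENSMUSG00000058258, chromosome 13 from 8935537 to 8942487, plus strand), isopentenyl diphosphate isomerase, was at 0.943, 2.98, 1.45 and 0.927 CPM in fasted control and 2.95, 2.04, 3.03 and 2.30 in fasted LKO. On refeeding it stood at 3.13, 24.3, 2.95 and 1.49 CPM in control and at 15.9, 58.5, 31.3 and 49.4 in LKO. All refed LKO libraries were thus far above all fasted LKO ones, and S49 alone of the refed control libraries was near them. Idi1 rose by 3.90 in LKO (log2, SE 0.70, edgeR adjusted p = 0.00122), the largest rise of the 9. It was also the member called in control livers on refeeding, at 2.35 (SE 0.75, edgeR adjusted p = 0.0431), but without S49 that value was 0.71 (adjusted p = 0.376). The tables also list the pseudogenes Idi1-ps1, Idi1-ps2 and Idi1-ps5, at no more than 22 counts in a library against 15 to 1141 for Idi1, so reads shared with them make the lowest Idi1 values uncertain.

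Fdps (ENSMUSG00000059743, chromosome 3 from 89000895 to 89009266, minus strand), farnesyl diphosphate synthase, was the least abundant member by counts, with 4 to 292 counts in a library. It stood at 0.948, 1.30, 0.224 and 0.435 CPM in fasted LKO and at 1.995, 12.9, 11.4 and 12.6 in refed LKO. The 3 refed LKO libraries other than S52 lay close together, and S52 was far below them but above all fasted LKO libraries. Fdps rose by 3.71 in LKO on refeeding (log2, SE 0.79, edgeR adjusted p = 0.0040), and its refed genotype difference of 2.19 (SE 0.70) did not pass (edgeR adjusted p = 0.0938). Counting limits the precision of the fasted values, and reads shared with near-identical copies of Fdps would make them uncertain.

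Fdft1 and Sqle commit farnesyl diphosphate to sterols. Fdft1 (ENSMUSG00000021273, chromosome 14 from 63382599 to 63417027, minus strand), squalene synthase, held 57.9, 95.2, 72.4 and 49.6 CPM in fasted LKO and 118, 330, 193 and 212 in refed LKO. Its refed control libraries held 80.3, 152, 81.0 and 63.7 CPM, so that S49 again exceeded S52 while the other 3 were below every refed LKO library. Fdft1 rose by 1.63 on refeeding in LKO (log2, SE 0.31, edgeR adjusted p = 0.00173) and was 2.26-fold higher in refed LKO than in refed control (log2 1.18, SE 0.30, edgeR adjusted p = 0.0423). Its last 774 bases overlap Ctsb on the other strand, which had 9170 to 16775 counts in a library, and whether the counting used strand is not given in the sources used here.

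Sqle (ENSMUSG00000022351, chromosome 15 from 59186926 to 59203041, plus strand) encodes squalene epoxidase, a rate-controlling enzyme of the sterol pathway. Fasted controls had 3.18, 10.04, 3.98 and 3.46 CPM and fasted LKO livers 9.08, 11.1, 7.34 and 8.45 CPM. Refed controls had 5.62, 40.5, 2.59 and 3.73 CPM and refed LKO livers 25.4, 130, 82.6 and 89.6 CPM. The fasted LKO libraries were above 3 of the 4 fasted control libraries, but S41 lay among them, so those groups overlapped, and S49 was 7.20-fold above the next refed control library. Sqle rose by 3.19 on refeeding in LKO (log2, SE 0.71, edgeR adjusted p = 0.0053). In the refed state it was 6.22-fold higher in LKO than in control, the largest genotype difference of the 9 (log2 2.64, SE 0.69, edgeR adjusted p = 0.0440).

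**Figure D2:**
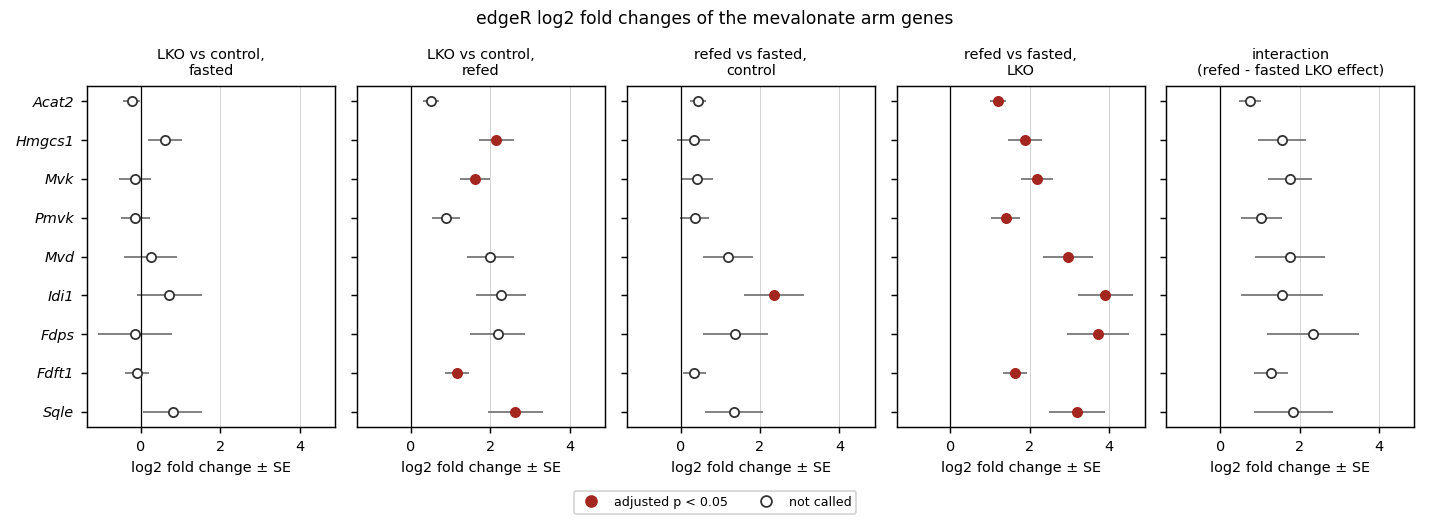
Log2 fold changes (points) with standard errors (lines) of the 9 genes in the 5 edgeR comparisons, with filled points for an adjusted p under 0.05. All 9 points are filled for refed against fasted LKO, 4 for the refed genotypes, 1 for refed against fasted control, and none for the fasted genotypes or the interaction.

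Between the refed genotypes, Hmgcs1, Mvk, Fdft1 and Sqle were called higher in LKO, 4 of 9 members where 3.63% of all genes were called and 2.28% called higher. The log2 fold changes of the other 5 ran from 0.51 for Acat2 (edgeR adjusted p = 0.172) to 2.27 for Idi1 (edgeR adjusted p = 0.0544). All 9 were positive with a median of 2.002, against −0.01 over all genes tested, and all 9 had an unadjusted p under 0.05, as had 18.4% of all genes. Because S49 lay above S52, 0 of 9 members separated the genotypes, against 6.70% of all genes with LKO above control. The authors' deposited table lists 1 of 9 members, Hmgcs1, at an adjusted p under 0.05 here, where 4.03% of its genes are listed so, and 9 of 9 for refed against fasted LKO, where 9.83% are.

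The count of calls between refed genotypes moved with single libraries. S49 and S52 were set apart by their levels in these same 9 genes, so counts without them are a description and no support for a difference. In 9 of 9 members the lowest refed LKO library lay above S48, S50 and S51, so the lack of overlap without S49 was fixed beforehand. Without S49 all 9 members were called (2.68% of all genes in that fit) and 9 of 9 lay higher in LKO without overlap (8.90% of all genes), with log2 fold changes from 0.78 for Acat2 to 4.39 for Sqle. Without S52, 7 of 9 were called (2.99% of all genes) and 7 of 9 did not overlap (9.10%). Without S48, 0 of 9 were called (1.33% of all genes), the smallest adjusted p being 0.0555 for Hmgcs1. Leaving out S50, S51, S53, S54 or S55 left 1 call, Hmgcs1 (1.53% to 3.50% of all genes), and so did a fit of the refed groups alone (2.87% of all genes). Leaving out S40, S42 or S43 left Hmgcs1 and Mvk (2.90% to 3.35%). DESeq2 and limma-voom each called 6, adding Mvd and Idi1, where they called 6.38% and 3.56% of all genes. The direction was higher in LKO for all 9 members in each of these fits.

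**Figure D3:**
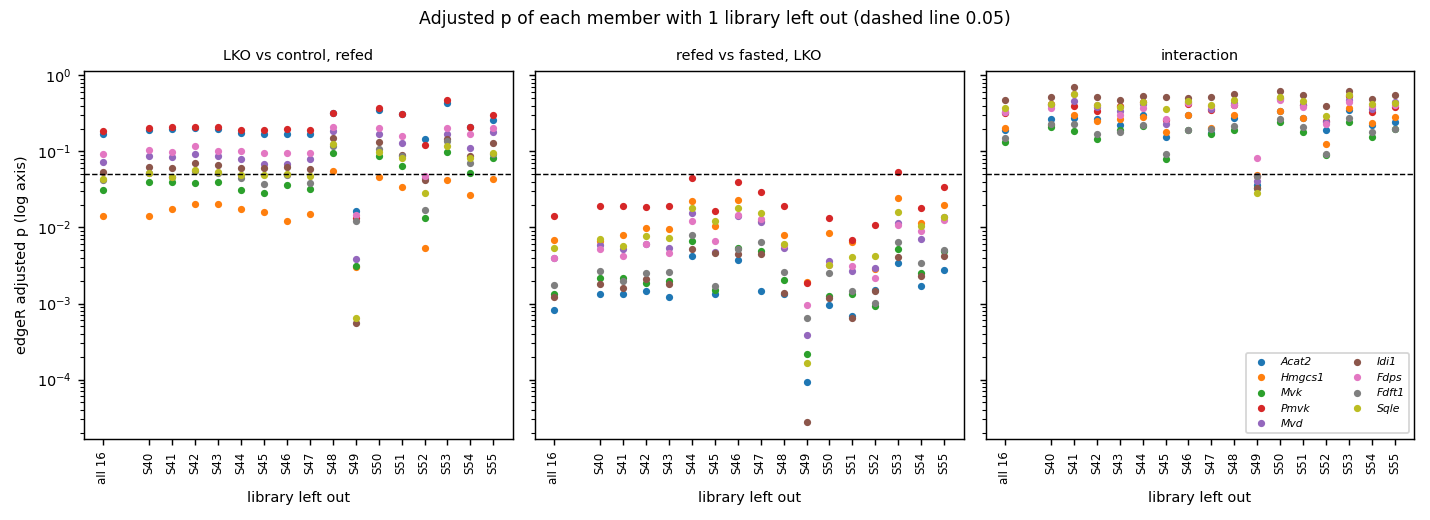
edgeR adjusted p (log axis) of each of the 9 genes with all 16 libraries and with 1 library left out, for the refed genotypes, for refed against fasted LKO and for the interaction, with a dashed line at 0.05. The points for the refed genotypes drop below the line for all 9 genes without S49 and lie above it for all 9 without S48, while those for refed against fasted LKO stay below it except Pmvk without S53.

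In the fasted state no difference between genotypes was called in the arm. The count was 0 of 9 by edgeR, by DESeq2 and by limma-voom, where edgeR called 12.2% of all genes, and 0 of 9 members had an unadjusted p under 0.05, as had 26.7% of all genes. Log2 fold changes ran from −0.24 for Acat2 to 0.80 for Sqle, with a median of −0.11. Groups overlapped for 9 of 9 members, where 16.9% of all genes had no overlap. The standard errors ran from 0.20 for Acat2 to 0.92 for Fdps, so the missed threshold does not show that the levels were equal.

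The interaction, the refed genotype effect minus the fasted one, was positive in 9 of 9 members. It ran from 0.75 for Acat2 to 2.33 for Fdps on the log2 scale, with a median of 1.55 against −0.01 over all genes. None of the 9 was called by edgeR (adjusted p from 0.133 for Mvk to 0.477 for Idi1), by DESeq2 or by limma-voom, where edgeR called 0.538% of all genes. Acat2, Hmgcs1, Mvk and Fdft1, 4 of 9, had an unadjusted p under 0.05, as had 16.5% of all genes. Without S49, 8 of 9 were called (1.91% of all genes in that fit) and Fdps was not (adjusted p = 0.0815), with a median of 2.35. The rise on refeeding in LKO was therefore called while its excess over the control response was not, except without that library. S49 was set apart by its levels in these same genes, so the calls without it are a description only.

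In control livers the refeeding values other than for Idi1 ran from 0.33 for Hmgcs1 to 1.38 for Fdps on the log2 scale, and Acat2 had the lowest adjusted p of these (0.145). The median was 0.44 against 0.01 over all genes. Without S49 the value was below 0 for Hmgcs1 (−0.25), Mvk (−0.16), Pmvk (−0.23) and Sqle (−0.40), and 0 of 9 were called, where 12.2% of all genes were.

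Levels can be compared between genes only per gene length, here as CPM per kilobase of the gene length in the deposited tables. In fasted control Fdft1 (17.98 ± 4.24 CPM per kilobase), Acat2 (14.9 ± 1.47), Hmgcs1 (12.4 ± 4.21) and Pmvk (8.73 ± 0.938) were the most abundant, each within the SDs of the next (n = 4). Mvk followed at 4.98 ± 1.08, Mvd at 2.64 ± 0.942 and Sqle at 0.931 ± 0.589 CPM per kilobase, and Pmvk and these 3 were apart from each other by more than their SDs. Idi1 (0.449 ± 0.276) and Fdps (0.195 ± 0.161) were lowest, Idi1 within the SDs of both Sqle and Fdps. In refed LKO Hmgcs1 led at 69.1 ± 33.8 CPM per kilobase before Fdft1 at 51.8 ± 21.3, and the levels of Acat2, Mvd, Pmvk, Mvk and Sqle ran from 29.0 down to 14.8, with each neighbour within the SDs of the next. Idi1 reached 11.1 ± 5.42, and Fdps stayed lowest at 2.31 ± 1.24 CPM per kilobase, below Idi1 by more than the SDs. The places of Idi1 and Fdps in either order are uncertain, because how reads shared with pseudogenes or near-identical copies were counted is not given. Summed over the 9 genes, the level was 63.3 ± 11.4 CPM per kilobase in fasted control and 66.3 ± 15.5 in fasted LKO livers, and after refeeding it was 87.8 ± 52.7 in control and 244 ± 103 in LKO livers.

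**Figure D4:**
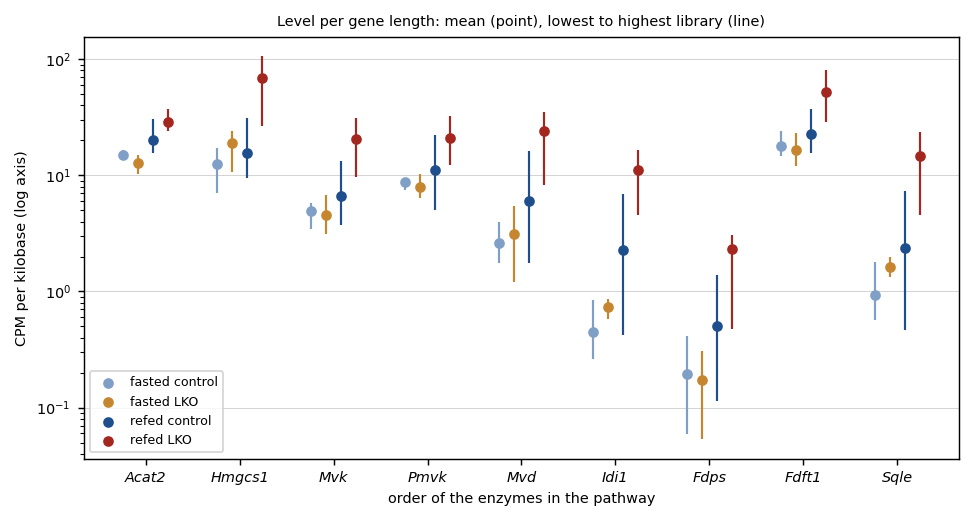
Level in CPM per kilobase of gene length (log axis) of the 9 genes in the order of their enzymes in the pathway, with a point for the mean of 4 libraries and a line from the lowest to the highest library, for the 4 groups. Refed LKO is the highest mean for every gene, and refed control has long lines that reach toward it.

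The 9 genes varied together, also among libraries of 1 group. Pearson's r of log2 CPM between pairs of members ran from 0.79 to 0.97 over the 16 libraries (36 pairs, median 0.91). After the mean of each group was subtracted it still ran from 0.71 to 0.93 (median 0.82). These values are a description, since all pairs share the same libraries and include S49 and S52. The spread itself was wide: the median SD of log2 CPM within refed control was 0.92 over the members and 0.22 over all genes tested, and within refed LKO 0.84 and 0.19. In fasted control it was 0.48 and 0.19, and in fasted LKO 0.41 and 0.23.

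The mean log2 deviation of the 9 genes from their mean over 16 libraries placed S49 (1.30) between S52 (0.63) and S54 (1.72), the 2 lowest refed LKO libraries. The other refed control libraries, at −0.38, −0.88 and −1.10, lay within or beside the fasted range of −1.11 to −0.16. S41 and S45, at −0.20 and −0.16, were the highest of their fasted groups. S49 also had the highest mean of 8 genes known to be high in the fed liver (1.63, against −0.16 to 1.001 in the other refed control libraries), while S51, the lowest refed control library in the arm, had a mean of 0.58 for those genes, above that of S50, the lowest of its group. Refed LKO was between 0.10 and 0.81 for those genes, with S52 at 0.61, so S52 was not low in that list. The part of these feeding-state levels in the differences of the arm was not tested.

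**Figure D5:**
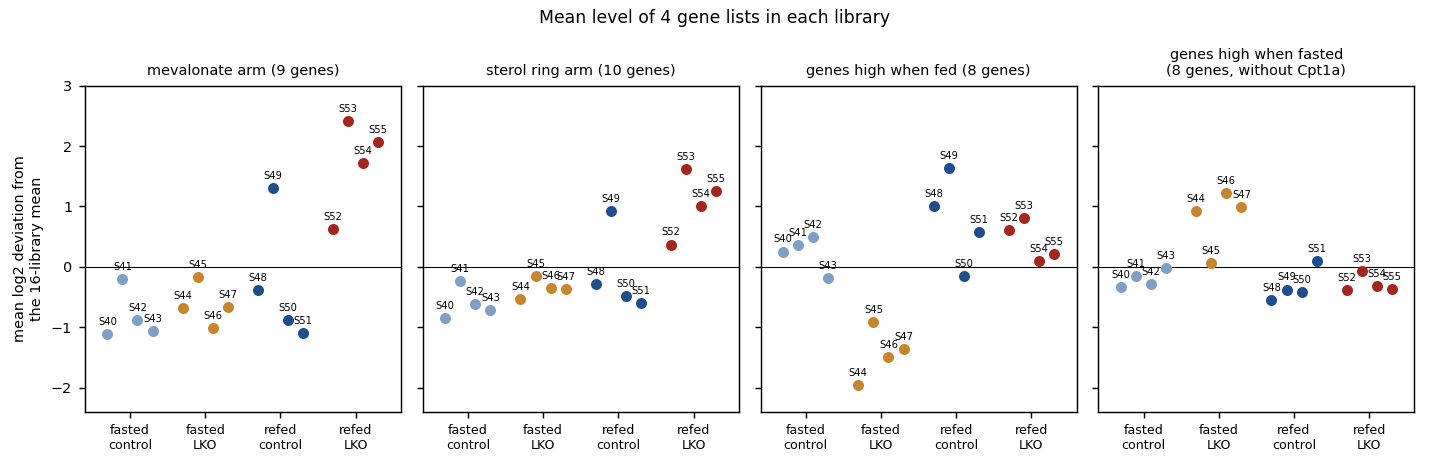
Mean log2 deviation from the 16-library mean in each library (points, labelled) for the 9 mevalonate arm genes, the 10 sterol ring genes, 8 genes high when fed and 8 genes high when fasted, grouped by genotype and feeding state. S49 is the highest refed control library and S52 the lowest refed LKO library for both sterol lists, and S49 is the highest of all libraries for the genes high when fed.

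Some genes of cell proliferation, which mark no single cell type, and some markers of other cells also differed between the refed genotypes. The summed level of 7 proliferation genes was 20.6 to 30.5 CPM in refed control and 57.7, 55.1, 83.6 and 150.8 CPM in S53, S54, S55 and S52 of refed LKO. Of these, 5 of the 6 that were tested were called higher, where 2.28% of all genes were. The refed LKO library lowest in the arm, S52, was thus the highest in these genes. Of 7 lymphocyte markers the sum was 4.18 to 5.84 CPM in refed control and 16.5 to 38.7 in refed LKO, with 1 of 6 tested called higher (2.28% of all genes). All 8 macrophage markers had lower values in refed LKO, with a median of −0.76 on the log2 scale. None of these 8 was called by edgeR (3.63% of all genes were), and 5 had an unadjusted p under 0.05 (18.4% of all genes). Their sum was 215 to 822 CPM in refed control, with S49 the highest of all 16 libraries, and 226 to 334 CPM in refed LKO. Of 6 endothelial markers 1 was called higher (2.28% of all genes), Clec4g (edgeR adjusted p = 0.0388). The endothelial sum was 110 to 175 CPM in refed control and 131 to 175 in refed LKO. No tested marker of hepatocytes, stellate cells, cholangiocytes, neutrophils, red blood cells or adipocytes was called, which does not show equal levels. Only 1 of 4 neutrophil and 1 of 5 adipocyte markers were tested, the latter being Cfd (log2 −3.18, edgeR adjusted p = 0.0687). Of 8 hepatocyte markers 3 had an unadjusted p under 0.05 (18.4% of all genes), and the list median was −0.31. The part of these markers in the result was not tested. In fasted LKO the proliferation sum was 23.0 to 27.9 CPM and the lymphocyte sum 14.5 to 34.6 CPM.

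Most of the genes that complete the sterol ring also rose on refeeding in LKO. Of the 10 of this list, 7 were called higher, where 9.28% of all genes were, and 7 did not overlap, with Msmo1, a C4 demethylation enzyme, at the largest rise (log2 2.87, SE 0.59, edgeR adjusted p = 0.0032). Between the refed genotypes 3 were called higher (2.28% of all genes), led by Dhcr7, which makes cholesterol from its last precursor (1.56, SE 0.37, edgeR adjusted p = 0.0280). This count was 9 of 10 without S49 (2.68% of all genes called in that fit) and 6 of 10 without S52 (2.99%). It was 0 of 10 without S48, S50, S51, S53 or S55 (1.33% to 3.50% of all genes). Dhcr7 stood at 2.14 without S49 (edgeR adjusted p = 0.00206) and at 1.79 without S52 (edgeR adjusted p = 0.0119). In control livers 2 were called higher (7.79% of all genes), led by Lss, lanosterol synthase (1.21, SE 0.33, edgeR adjusted p = 0.0218). Without S40, S43 or S49 none was called higher in control livers, and without S42 or S50 1 was. In these fits 8.28% to 12.7% of all genes were called in either direction. Lss without S49 was at 0.76 (edgeR adjusted p = 0.0845). The list medians were 1.43, 1.16 and 0.70 on the log2 scale in these comparisons. In the fasted state 1 of 10 genes of the ring list, Hsd17b7, was called higher in LKO (1.45, SE 0.27, edgeR adjusted p = 0.0028). This is near the share of all genes called between the fasted genotypes, 12.2%. The ring list had 0 of 10 called in the interaction by edgeR (0.538% of all genes), with 5 of 10 at an unadjusted p under 0.05 (16.5% of all genes). Without S49, 4 of 10 were called in the interaction (1.91% of all genes).

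Genes that sense sterols were more mixed. Of 10 tested, 6 were called higher and 1 lower on refeeding in LKO (18.1% of all genes in either direction), the lower one being Insig2 (−1.37, SE 0.30, edgeR adjusted p = 0.0051), which retains SREBP2. Insig2 averaged 396 ± 178 CPM in fasted LKO and 205 ± 54.7 in fasted control (SD, n = 4). After refeeding it averaged 153 ± 67.2 CPM in LKO and 203 ± 29.6 in control. Between the fasted genotypes 0 of 10 were called by edgeR (12.2% of all genes), the smallest p being that of Insig2 (log2 0.95, edgeR adjusted p = 0.0501). On refeeding in LKO Srebf2 itself rose by 0.82 (SE 0.20, edgeR adjusted p = 0.0091) and Insig1, another retaining protein and a known SREBP2 target, by 2.04 (SE 0.41, edgeR adjusted p = 0.0029). In control livers Insig1 was called higher (1.36, SE 0.41, edgeR adjusted p = 0.0331) and Scap lower (−0.62, SE 0.11, edgeR adjusted p = 0.0024), 2 of 10 where 15.4% of all genes were called. The Insig1 call was lost without S40, S42, S43, S48 or S49, its value without S49 being 0.82 (edgeR adjusted p = 0.139). Without S41, S50 or S51, 2 to 4 genes were called higher, where 9.26% to 16.8% of all genes were called in either direction. Between the refed genotypes 1 of 10 was called (3.63% of all genes), Tmem97, a sterol-responsive membrane protein (0.73, SE 0.14, edgeR adjusted p = 0.0114), while Srebf2 (0.44, SE 0.20) and Insig1 (0.70, SE 0.40) were not (edgeR adjusted p = 0.242 and 0.372). Tmem97 was called with any 1 library left out. Without S49, 3 of 10 were called (2.68% of all genes), Srebf2 among them (0.69, edgeR adjusted p = 0.0457), and without S52 the count was 1 (2.99%).

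Some genes of the branches that leave the arm were called on refeeding, with small list medians. Of 16 tested for prenyl transfer, dolichol and ubiquinone, 4 were called higher and 1 lower on refeeding in LKO (18.1% of all genes in either direction). In control livers 4 of 16 were called higher, where 7.79% of all genes were. Without S40 the count in control was 2 of 16, where 8.28% of all genes were called in either direction. The list medians were 0.15 in LKO and 0.12 in control on the log2 scale. Pdss1, which builds the ubiquinone side chain, had the largest rise in both, 0.80 (SE 0.19, edgeR adjusted p = 0.0081) and 0.86 (SE 0.20, edgeR adjusted p = 0.0087). Rabggtb, a subunit that prenylates Rab proteins, was the one that fell in LKO (−0.49, SE 0.09, edgeR adjusted p = 0.00195). It averaged 50.7 ± 7.60 CPM in fasted LKO and 40.3 ± 2.69 in fasted control (SD, n = 4). After refeeding it averaged 36.01 ± 2.27 CPM in LKO and 35.5 ± 1.55 in control. In the fasted state 2 of 16 were called higher in LKO (12.2% of all genes in either direction), with the largest rise for Rabggtb (log2 0.43). The list median was −0.01, and with 1 library left out the count called ran from 0 to 2. Between the refed genotypes 0 of 16 were called by edgeR (3.63% of all genes), with 5 at an unadjusted p under 0.05 (18.4% of all genes). The smallest p was that of Nus1 (−0.23, SE 0.09, edgeR adjusted p = 0.167), and the list median was 0.11. The count was also 0 without S49 and without S52. Of 5 genes of acetyl-CoA supply to the cytosol, 1 was called higher on refeeding in control (7.79% of all genes) and 2 in LKO (9.28%). The list median was −0.05 in control, where only 2 of 5 values were positive, and 0.32 in LKO. Between the refed genotypes 0 of 5 were called (3.63% of all genes). In this list Acly, which makes the cytosolic acetyl-CoA that feeds the arm, had the largest rise in both genotypes. It rose by 1.40 in control (SE 0.27, edgeR adjusted p = 0.0031) and 1.70 in LKO (SE 0.27, edgeR adjusted p = 4.9e-04), and the refed genotypes differed by −0.04 (SE 0.26, edgeR adjusted p = 0.967). That difference was 0.43 without S49 (edgeR adjusted p = 0.176) and −0.06 without S52 (edgeR adjusted p = 0.948).

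Among 8887 other named protein-coding genes averaging 5 CPM or more, those with the pattern most like the mean of the 9 members across the 16 libraries were Nsdhl (Pearson's r 0.99), Msmo1 (0.99), Dhcr7 (0.96), Srebf2 (0.96), Lss (0.95), Cyp51 (0.94), Rdh11 (0.93) and Mmab (0.92). After group means were subtracted, Nsdhl (0.99), Msmo1 (0.96), Srebf2 (0.95), Mmab (0.94), Cyp51 (0.94), Lss (0.92), Abcd4 (0.89) and Dhcr7 (0.89) were among the closest. The libraries S49 and S52 enter both measures. These correlations over 16 libraries are a description with no test.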

How the data were processed

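Poly-A RNA of whole liver was sequenced in 16 libraries, built by Novogene with random hexamers and dUTP, per the labels' protocols. HISAT2 2.0.5 and the genome build mm39 are named per the submitters' processing notes; the counting tool, its use of strand and the annotation are not given in the sources used here. The authors deposited 4 tables, each for 1 pair of groups, with raw counts per gene, a group mean of a normalized signal (not used here), log2 fold changes, p-values and adjusted p-values. The authors' deposited log2 fold changes are first group over second, and their sign was turned here. The authors' deposited gene length, in bases, served to compare levels between genes. Count columns S40 to S55 were tied to groups by the tables' headings and carry no replicate number, and the other 64 columns that hold a value for 1 library were left unused. The tables were joined on gene identifier (0 counts differed between tables; 3148 genes absent for low totals were set to 0 in some libraries, 0 of them tested).

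Genes passing filterByExpr (14488) were scaled with TMM factors of 0.941 to 1.07 and fitted in edgeR 4.0.16 (R 4.3.3) (glmQLFit, 1 factor of 4 groups) with a biological coefficient of variation of 0.185. Each of 5 comparisons was tested by glmQLFTest with Benjamini-Hochberg adjustment over every tested gene. A standard error (SE) is the log2 fold change divided by the square root of F. CPM are counts for each mega-count of the TMM-scaled total of tested genes, and log2 CPM used a prior count of 2. Depth limits low genes most, chiefly Fdps. Alternatives were 2 other scalings, 2 other filters, DESeq2 1.42.0, limma-voom (limma 3.58.1), a fit of only the groups compared, a threshold of 0.01 and leaving out each library. The scripts were tested on simulated data.

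The 9 members, the gene lists and the marker lists were chosen with earlier results of these data known. Named genes were the members, Cpt1a, the members' paralogs, in each list the called gene with the largest rise and fall (if none was called, that with the smallest p), and the 10 genes closest in pattern. Srebf2, and Insig1 on refeeding in LKO, were named for their role with their values known. A few genes picked by that rule are left out here.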

Additional observations from a re-analysis of the deposited data

Results flagged for a closer look

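In each of the 36 combinations of a member and a group, the highest and the lowest of the 4 libraries were checked for a gap to the next library that is a large share of the group's range (Dixon's 95% critical value). This was so in 6 of the 36 combinations, from 3 libraries, and chance alone gives about 1 in 20 groups. In refed control, S49 stood apart for Hmgcs1 (142 CPM, next 53.02), Mvd (30.1, next 7.22), Idi1 (24.3, next 3.13) and Sqle (40.5, next 5.62). In refed LKO, S52 was low for Fdps (1.995 CPM, next 11.4). In fasted control, S41 was high for Sqle (10.04 CPM, next 3.98). The members share these libraries, so the 4 values of S49 are not independent of each other.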

How the results depend on the processing

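No paired analysis was possible because the count columns carry no replicate number. The rise of the 9 members on refeeding in LKO kept its direction under all 24 other settings, with 8 or 9 members called in each, and 205 of the 206 recomputed values of single members stayed on their side of the threshold (Pmvk without S53 did not). With 1 library left out, the number of members called ran from 0 to 9 between the refed genotypes, from 0 to 1 for refed against fasted control and from 0 to 8 for the interaction, and the median log2 fold change ran from 1.71 to 2.72 between the refed genotypes and from 1.29 to 2.35 in the interaction. At an adjusted p under 0.01 the count was 0 between the refed genotypes and 0 for refed against fasted control; a fit of only the groups compared gave 1 and 0, and limma-voom gave 0 for the latter. The cause of these changes in count was not tested. Fewer libraries also leave fewer degrees of freedom, and the part of this was not tested either. Direction changed with 1 library left out for these log2 fold changes, none of them called with all 16 libraries: between fasted genotypes Mvk (−0.42 to 3.6e-04), Mvd (−0.17 to 0.51), Fdps (−0.57 to 0.54) and Fdft1 (−0.31 to 0.0669), and on refeeding in control Hmgcs1 (−0.25 to 0.53), Mvk (−0.16 to 0.63), Pmvk (−0.23 to 0.59) and Sqle (−0.40 to 1.90). Fdps has no value with the filter at a mean of 5 CPM, and the interaction has none with only the groups compared. With 4 libraries a group and SEs up to 1.16 on the log2 scale, small differences could not be told from the spread.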

Other observations

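The thiolase genes related to Acat2 had other patterns. Acat1, the mitochondrial thiolase, was higher in fasted LKO (830 ± 70.8 against 667 ± 56.2 CPM, SD, n = 4, log2 0.31, SE 0.09, edgeR adjusted p = 0.0374), and its refeeding value in LKO was −0.07 (SE 0.09, edgeR adjusted p = 0.648). Its difference between the refed genotypes was also 0.31 (SE 0.09) but was not called (edgeR adjusted p = 0.0727). Acat3, the neighbour of Acat2, was not called in the 5 comparisons, with a refeeding value in LKO of 0.18 (SE 0.23, edgeR adjusted p = 0.638).

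Of 8 genes known to be high in the fed liver, 3 were called lower in LKO than in control after the fast (12.2% of all genes were called), with the largest fall for Thrsp, a gene tied to lipogenesis (−3.61, SE 0.55, edgeR adjusted p = 7.5e-04), and the list median was −1.21 on the log2 scale. On refeeding in LKO 6 of 8 were called higher (9.28% of all genes), again led by Thrsp (3.70, SE 0.55, edgeR adjusted p = 3.1e-04). In control livers 5 of 8 were called higher on refeeding (7.79% of all genes), also led by Thrsp (log2 1.76). With 1 library left out, the count in control ran from 3 to 5 (8.28% to 16.8% of all genes). The median rise of the list on refeeding was 2.07 in LKO and 0.88 in control, and the interaction called 0 of 8 (0.538% of all genes). Between the refed genotypes 0 of 8 were called by edgeR (3.63% of all genes were), with 2 at an unadjusted p under 0.05 (18.4% of all genes). Without S49 the count was 0, and without S50 or S52 1 was called lower (2.04% to 2.99% of all genes called in these fits). With all 16 libraries the list median was −0.30, where the median of the 9 members was 2.002. Without S49 the list median was −0.06.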
